A study of Homo sapiens with 6 samples.

Results

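The golgins are long coiled-coil proteins that stand out from the Golgi membrane and catch incoming vesicles. Those treated here are the products of 9 genes: GOLGB1 and GOLGA5, which are anchored in the membrane by their own C-terminus, GOLGA4, GCC1, GCC2 and GOLGA1, which carry a GRIP domain and sit at the trans-Golgi network, and TRIP11, GOLGA2 and GOLGA3, which act mainly at the cis side and the early stack. Their transcripts were examined for N6-methyladenosine (m6A), the most common internal mark of mRNA, which the METTL3 enzyme writes and which is known to gather near stop codons and in long internal exons. GOLGB1, which encodes giantin, was picked by its peak counts, many in the control and few in both knockdowns. Its counts are therefore a description and support nothing. The other 8 genes were taken as its functional relatives.

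The cells were U-251 MG, a human glioblastoma line, and m6A was mapped by MeRIP-seq: an m6A antibody enriches RNA fragments that carry the mark, and regions where the enriched library exceeds its input library are commonly called as peaks. The 3 conditions were a control short hairpin RNA (shNC), a hairpin against TRA2A (shTRA2A), an RNA-binding splicing regulator, and a hairpin against METTL3 (shMETTL3). The labels give 1 immunoprecipitated and 1 input library for each, name no further treatment, and do not say whether the knockdown cells were clones or pools. There is 1 peak list per condition and no replicate, so no test between conditions was possible and every count below is a description of these lists. The number of reads in each library is unknown here, and peak lists carry no transcript levels, so fewer peaks cannot be told apart from less transcript or less depth. The lists do not show how far a hairpin lowered its target: METTL3 had no peak in any list and TRA2A had 1, in the shTRA2A list. Of 6 glial and mesenchymal markers, NES, SOX9 and CD44 had peaks, and VIM, GFAP and S100B had none. None of 6 markers of blood, endothelial, neuronal or oligodendrocyte cells had a peak. Only 5882 genes, coding or long non-coding, had a peak in any list, and the RefSeq table holds 20050 coding genes. A marker without a peak is thus common, and these counts are no check of cell identity.

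The 9 genes are 9 of 20050 coding genes in the RefSeq table, and 5882 genes, coding or long non-coding, had a peak in any list. A peak was taken for a golgin gene if it touched the gene body. This gave 68 peaks, 38 of 9206 in shNC, 11 of 2736 in shTRA2A and 19 of 5433 in shMETTL3, or 0.413%, 0.402% and 0.350% of each list. These shares include the 16, 1 and 3 peaks of GOLGB1, which was picked by those counts, so they depend on that choice. All 68 lay on the strand of their gene, though for GOLGA4 that strand was itself read from its peaks. All 9 genes had a peak in some list, 7 of them in the control, 5 in shTRA2A and 9 in shMETTL3. Of the 20050 coding genes 4001 had a control peak. With long non-coding genes counted too, 4148 genes had a control, 1830 an shTRA2A and 3233 an shMETTL3 peak.

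The golgins differed widely in how many peaks they carried. GOLGB1 had 16 control, 1 shTRA2A and 3 shMETTL3 peaks. GOLGA4 had 9, 5 and 5, GCC1 had 7, 1 and 2, and TRIP11 had 3, 1 and 2. GOLGA5, GCC2 and GOLGA2 each had 1 control, no shTRA2A and 1 shMETTL3 peak. GOLGA1 had 1 peak, in shMETTL3, and GOLGA3 had 3 in each knockdown list and none in the control. GOLGB1 thus supplied 42.1% of the control golgin peaks, 9.09% of those of shTRA2A and 15.8% of those of shMETTL3. Without it the family had 22, 10 and 16 peaks.

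**Figure D1:**
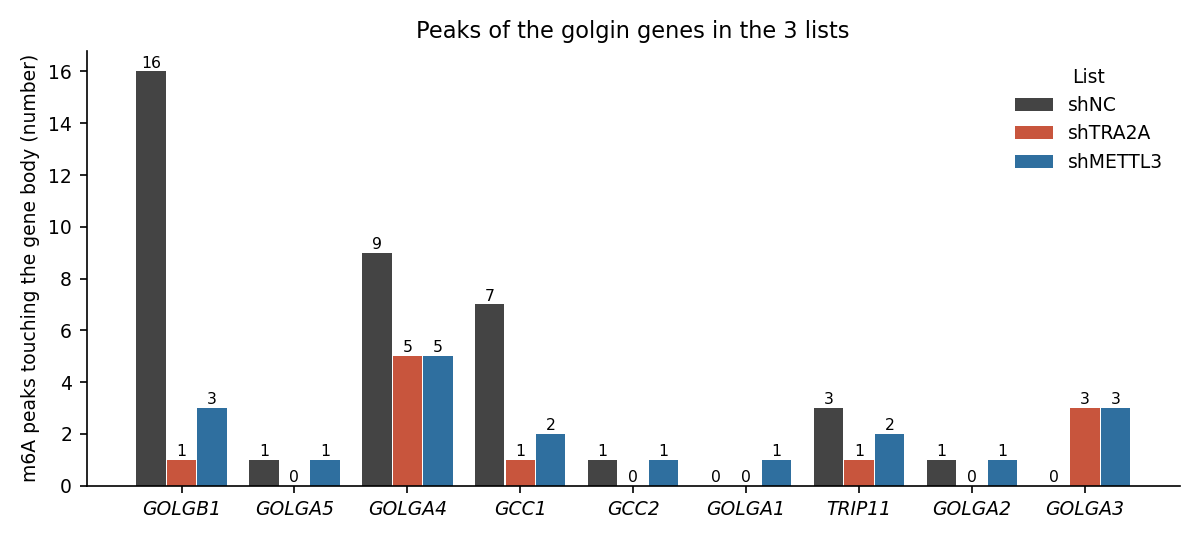
Number of m6A peaks that touch the body of each golgin gene (vertical axis) in the shNC, shTRA2A and shMETTL3 lists, 1 list per condition, with the count above each bar. GOLGB1 goes from 16 to 1 and 3, GOLGA4 has 9, 5 and 5, and GOLGA3 has peaks in the knockdown lists alone.

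The lists are of unequal length: the shTRA2A list has 29.7% and the shMETTL3 list 59.0% as many peaks as the control. When each list was limited to its best 2736 peaks by the score that the authors' caller gave, a limit that leaves the shTRA2A list whole, the golgins had 14 control, 11 shTRA2A and 10 shMETTL3 peaks. GOLGB1 then had 7, 1 and 2, and the 8 other genes together had 7, 10 and 8. The counts of GOLGB1 are those it was picked by, so its difference from the other golgins is a description.

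Of the 7 golgin genes with a control peak, 4 also had an shTRA2A peak, 57.1% (18.4 to 90.1%, exact Clopper-Pearson 95% interval, here and below), against 28.6% of all 4148 genes with a control peak. In shMETTL3 it was 7 of 7 (59.0 to 100.0%), against 46.9%. The golgins had a median of 3 control peaks and all genes a median of 1, and the gene shares were not matched for that difference. All these intervals treat genes or peaks as independent and cover counting error alone.

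Peak by peak, a control peak was counted as found where a knockdown peak of its strand overlapped it by 1 base or more. Of the 38 golgin control peaks, 6 were found in shTRA2A, 15.8% (6.02 to 31.3%), and 9.58% of all control peaks were. In shMETTL3, 9 of 38 were found, 23.7% (11.4 to 40.2%), against 17.9%. Of the 38 peaks, 16 are those of GOLGB1. Leaving it out, 5 of 22 (22.7%, 7.82 to 45.4%) and 7 of 22 (31.8%, 13.9 to 54.9%) were found, and both of these intervals include the value over all control peaks. The counts depend on the overlap rule: where at least 50% of a control peak had to be covered, 3 of 38 were found in each list. With lists of equal length 14 golgin control peaks remained, of which 4 were found in shTRA2A and 2 in shMETTL3. The shares over all control peaks were not computed under these rules. The shTRA2A and shMETTL3 comparisons share the control list.

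GOLGB1 (giantin; gene body chr3:121663201-121749966, 86766 nt, minus strand, GRCh38) encodes the largest golgin protein. Its 16 control peaks were not spread along the gene. Of these, 12 lay in a stretch of 6984 nt, chr3:121690953-121697936, which is 8.05% of the gene body and lies 52.0 to 59.0 kb from its 5′ end. Within it the peaks covered 2825 nt, 40.4% of the stretch, with gaps of 25 to 1334 nt between neighbours (median 300 nt). The exon structure is not part of the table used here, so whether this stretch is 1 exon was not examined.

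The 5 strongest control peaks of GOLGB1 all lay in that stretch. The best was chr3:121694512-121694986, 475 nt wide, with a score of 36.1 (93.1st percentile of the control list). It was followed by 121692128-121692552 with a score of 36.0, 121696137-121696486 with 32.7, 121690953-121691302 with 31.3 and 121695387-121695761 with 31.3. The other 7 peaks of the stretch were 50 to 325 nt wide and scored 8.55 to 25.3. Scores are the authors' own values, of unknown scale, and rank peaks only within a list.

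Outside the stretch GOLGB1 had 4 control peaks. Immediately downstream lay 2 wide spans, chr3:121681774-121690752 (8979 nt, score 14.9) and chr3:121677438-121681698 (4261 nt, score 10.1). Such spans do not follow the 25 nt steps of the other peaks, and whether they cross introns was not examined. Another span, of 549 nt (score 9.81) lay 20.1 kb from the 5′ end, and a peak of 200 nt (score 9.93) lay at 98.7% of the gene body, near the 3′ end.

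In the knockdown lists GOLGB1 was marked only inside this same stretch. Its 1 shTRA2A peak, chr3:121694662-121694711 (50 nt, score 8.50, 70.1st percentile of that list), lay wholly inside the strongest control peak. The first shMETTL3 peak, chr3:121694512-121694736 (225 nt, score 9.07), shared its lower boundary with that control peak and contained the shTRA2A peak. The second, chr3:121696212-121696311 (100 nt, score 10.5), lay inside the control peak at 121696137-121696486. The last, chr3:121696487-121696561 (75 nt, score 6.94), adjoined that control peak and shared no base with it. In all, 1 of 16 GOLGB1 control peaks was found in shTRA2A, 6.25% (0.158 to 30.2%), and 2 of 16 in shMETTL3, 12.5% (1.55 to 38.3%). GOLGB1 was picked for few knockdown peaks, so these shares are a description.

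**Figure D2:**
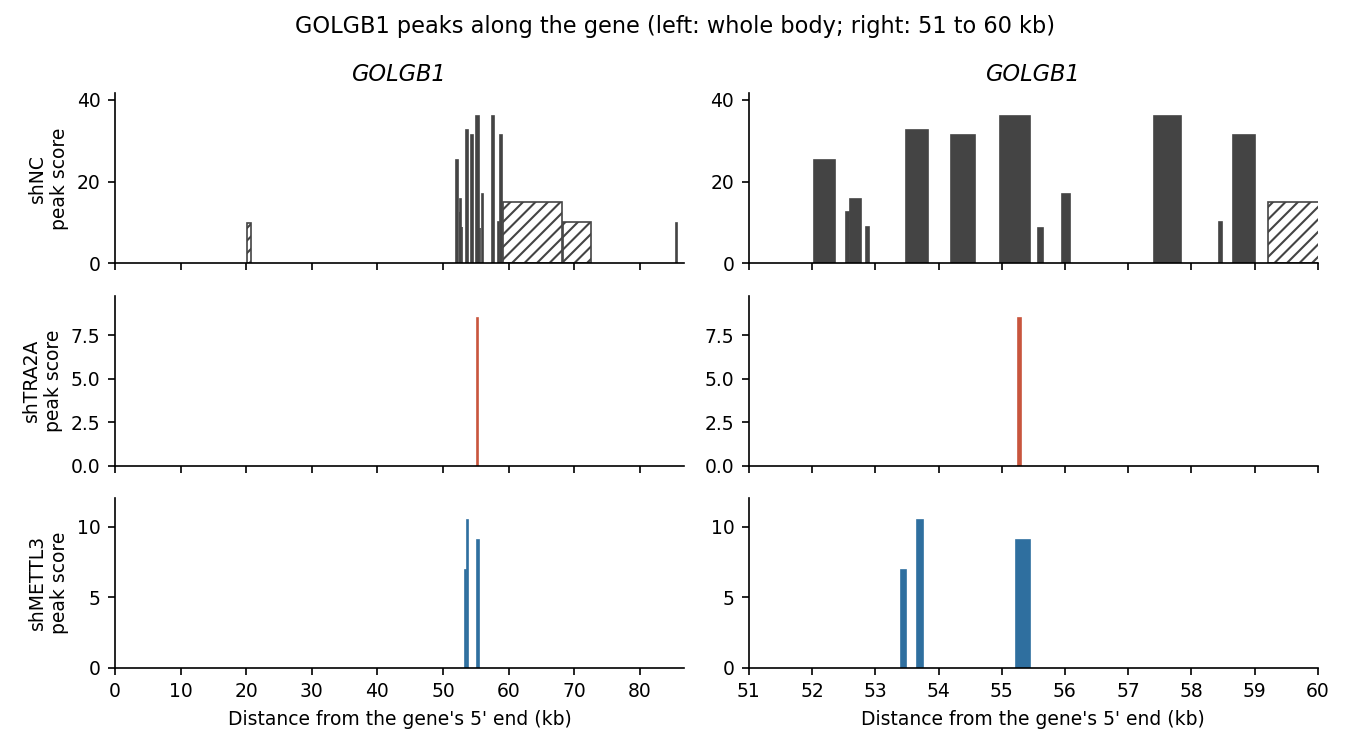
Peaks of GOLGB1 drawn to scale along the gene, left over the whole body and right over the stretch with most peaks. The horizontal axis is the distance from the 5′ end in kb and the vertical axis the peak score, whose scale differs between lists, and hatched bars are spans off the 25 nt steps or over 1000 nt. The 12 control peaks of the stretch stand above 1 shTRA2A and 3 shMETTL3 peaks in its middle.

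Among coding genes GOLGB1 ranked 8th by control peaks, level with PRRC2C (16, 6 and 10 peaks in shNC, shTRA2A and shMETTL3) and TUG1 (16, 5 and 6). TUG1, known as a long non-coding RNA, counts as coding in the RefSeq table. Just above GOLGB1 were MKI67 and BOD1L1 with 17 control peaks, and just below it SPEN with 15. These neighbours had 4 to 6 shTRA2A and 4 to 10 shMETTL3 peaks. Of the 38 coding genes with 10 or more control peaks, 14 (36.8%) had at most 1 shTRA2A peak, as GOLGB1 did, and 15 (39.5%) had at most 3 shMETTL3 peaks. Both held for 9 of the 38 (23.7%), GOLGB1 among them. GOLGB1 had 6.25% as many shTRA2A as control peaks, and the median over the 38 genes was 20.7%. For shMETTL3 it had 18.8%, and the median was 34.3%. In each list 10 of the 38 genes had a lower value than GOLGB1, so it was low but not at the end of the range.

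The genes whose 3 counts were nearest to those of GOLGB1 were ARHGAP35 (12, 1 and 4 peaks), ARID1A, a chromatin remodelling subunit (11, 1 and 4), AKAP13, an anchoring protein for protein kinase A (9, 1 and 3), and ALPK2 and BPTF (11, 2 and 4 each). Nearness was the Euclidean distance of log2(count + 1) over the 3 lists, from 0.50 for ARHGAP35 to 0.84 for ALPK2 and BPTF. KMT2C had the same counts as BPTF and came after it by alphabet. Likeness over 3 counts is weak.

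**Figure D3:**
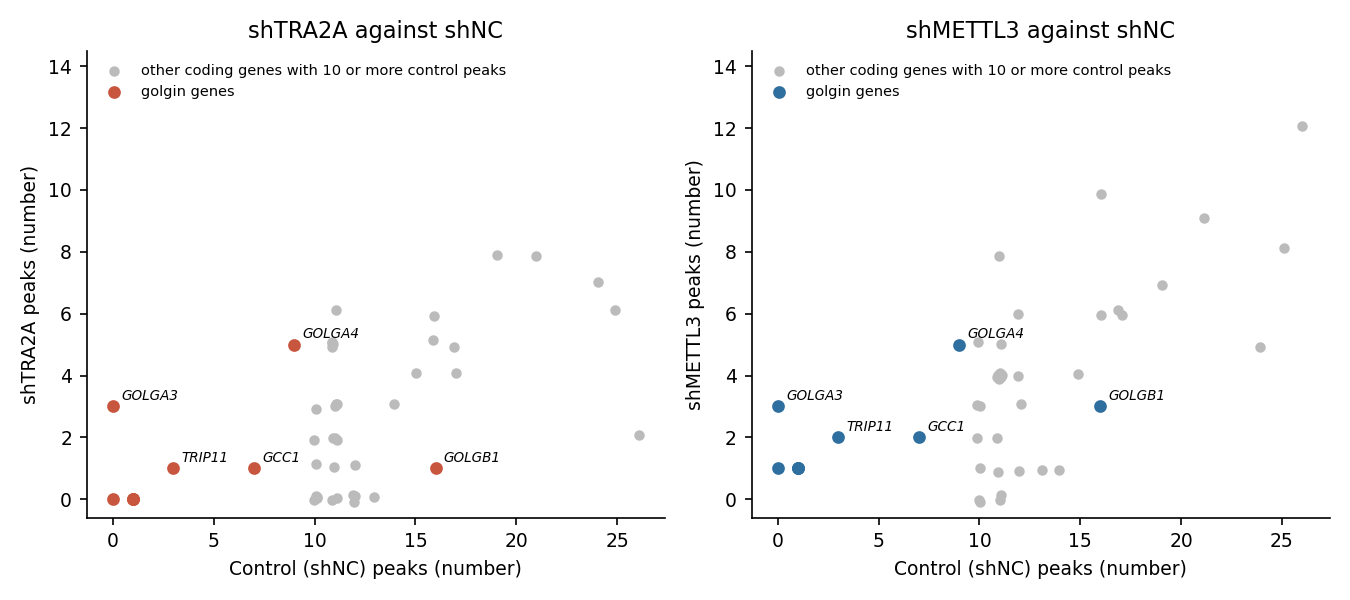
Number of shTRA2A (left) or shMETTL3 (right) peaks against control peaks for the 9 golgin genes, coloured, and for the other coding genes with 10 or more control peaks, in grey and shifted slightly so that points do not hide each other. GOLGB1 lies low for its 16 control peaks among genes that reach 8 and 12 knockdown peaks, while GOLGA4, with 9 control peaks, has 5 in each list.

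GOLGA5, a membrane-anchored golgin with a role in retrograde transport within the Golgi (chr14:92794305-92839947, plus strand), had a single control peak. It was a wide span, chr14:92794380-92797680, of 3301 nt, that began 75 nt from the 5′ end of the gene and scored 23.3 (83.2nd percentile). The shMETTL3 list had a 175 nt peak, chr14:92797481-92797655 (score 7.68), inside the far end of that span. The shTRA2A list had none.

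Among the GRIP-domain golgins, some of which the small GTPase ARL1 recruits to the trans-Golgi network, GOLGA4 carried the most peaks in each list. GOLGA4 (chr3:37243271-37366879) had 9 control peaks, of which 7 lay in a stretch of 4050 nt, chr3:37323594-37327643, that is 3.28% of the gene body. The strongest, chr3:37323594-37324218 (625 nt), had a score of 72.0, the highest of all golgin peaks and in the 98.7th percentile of the control list. The other 6 peaks of the stretch scored 11.4 to 30.0. The remaining 2 were narrow, 50 and 75 nt, with scores of 9.99 and 10.6, and lay 33.0 and 38.8 kb from the 5′ end. The first of these also lies within the pseudogene TCEA1P2, so which of the overlapping genes it belongs to is uncertain.

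The GOLGA4 peaks of the knockdown lists gathered in or directly beside the same stretch. In shTRA2A 2 peaks, chr3:37323944-37324118 (score 8.16) and 37324144-37324193 (score 5.68), lay inside the strongest control peak. Another, 37327144-37327643 (500 nt, score 17.8), covered the last control peak of the stretch, 37327494-37327643, and was the highest-scoring golgin peak of the shTRA2A list, in its 98.1st percentile. The other 2 shTRA2A peaks, 37326944-37327118 (score 10.8) and 37327744-37328508 (765 nt, score 12.6), lay 125 and 100 nt from the nearest control peak. The region from 37326944 on thus held 3 adjacent shTRA2A peaks and 1 control peak of 150 nt, while the control peaks between 37324344 and 37326818 had no shTRA2A peak on them.

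In shMETTL3 a peak at chr3:37323944-37324193 (score 4.58) lay inside the strongest GOLGA4 control peak and covered both shTRA2A peaks there. Peaks at 37325069-37325143 (score 6.56) and 37327344-37327618 (score 7.46) each lay on a control peak. A narrow peak at 37326969-37327018 (score 14.3) lay on no control peak but inside the shTRA2A peak at 37326944-37327118. The fifth, a span of 1901 nt (score 11.9), ended at the base before the strongest control peak. Of the 9 control peaks of GOLGA4, 2 were found in shTRA2A and 3 in shMETTL3.

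GCC1 (chr7:127580628-127585596, minus strand) has by far the shortest gene body of the golgins, 4969 nt, and lies within the longer body of the non-coding gene LOC105375490. All GCC1 peaks therefore also touch that gene, so which of the overlapping genes they belong to is uncertain. The 7 control peaks of GCC1 were all 50 or 75 nt wide, scored 8.14 to 12.3, and all lay below the median score of the control list. They were spread over 2591 nt, 52.1% of the gene body, with 17.4% of that stretch covered. The shTRA2A list held 1 wider peak, chr7:127581978-127582252 (275 nt, score 8.97), that took in 2 control peaks at once, at 127582003-127582052 and 127582128-127582202. The shMETTL3 list held 127582128-127582327 (score 8.52), on the latter of these, and 127582678-127582852 (175 nt, score 11.9), on a further control peak. The 4 control peaks nearer the 5′ end, from 127583078 to 127584593, had no knockdown peak on them.

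GCC2 and GOLGA1 complete the GRIP group, and neither had an shTRA2A peak. GCC2 (chr2:108449206-108509415) had 1 control peak, chr2:108469977-108470176 (score 13.7), and 1 shMETTL3 peak of 50 nt, 108470752-108470801 (score 13.7 in its own list), with 575 nt between them. GOLGA1 (chr9:124878275-124948043) had a single peak in all, an shMETTL3 span of 9277 nt, chr9:124911950-124921226. Its score of 18.0 was the highest among the golgin peaks of that list, in the 92.9th percentile.

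TRIP11 encodes a golgin, also called GMAP210, that binds curved membranes at the cis-Golgi and is needed for skeletal development. The gene (chr14:91965991-92040059, minus strand) had 3 control peaks. The strongest, chr14:92003456-92003905 (450 nt), scored 48.8 and lay in the 96.7th percentile. It was the only TRIP11 control peak found in either knockdown list. The shTRA2A peak, 92003531-92003680 (150 nt, score 9.88), lay wholly inside it, and the shMETTL3 peak, 92003556-92003655 (100 nt, score 7.53), lay wholly inside both. The control peaks at 92005706-92005905 (score 16.3) and 92014556-92015698 (score 8.97) were not found. A second shMETTL3 peak, of 50 nt at 91975232-91975281 (score 12.4), lay 28174 nt from any control peak of the gene.

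**Figure D4:**
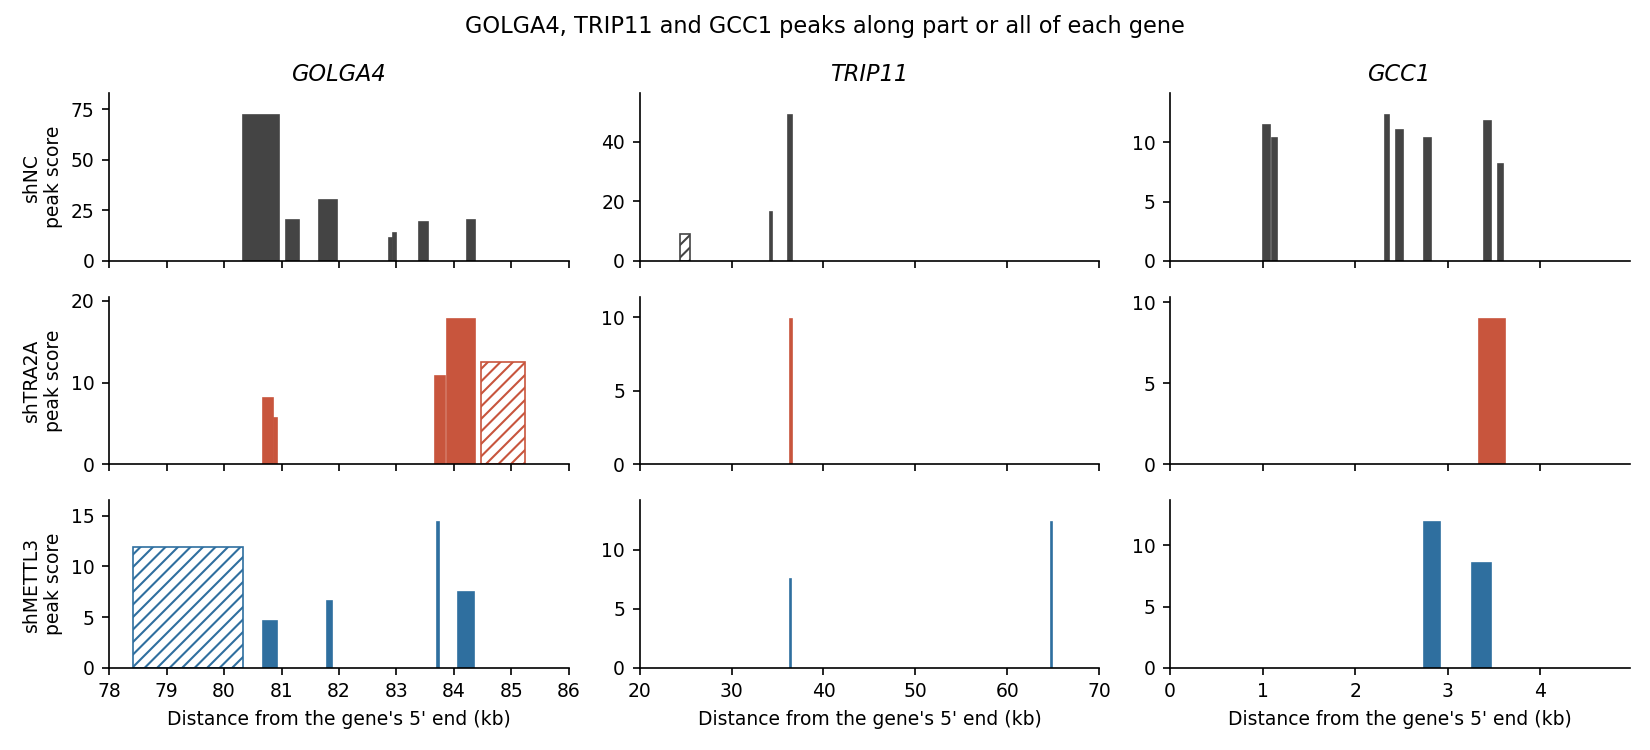
Peaks of GOLGA4, TRIP11 and GCC1 to scale, by distance from the 5′ end of each gene in kb (horizontal) and by peak score (vertical, not comparable between lists), for the 3 lists from top to bottom; GOLGA4 is shown around its main stretch, without its 2 narrow control peaks at 33.0 and 38.8 kb. The knockdown peaks of TRIP11 at 36.4 kb and of GOLGA4 at 80.7 kb lie within the tallest control peak of each gene.

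GOLGA2 (GM130), a cis-Golgi matrix protein that binds the vesicle tether USO1, had 1 control peak and 1 shMETTL3 peak at different places. The control peak was a wide span of 1995 nt, chr9:128273940-128275934 (score 9.19), that began 73 nt from the 5′ end of the gene (chr9:128255829-128276007, minus strand). It also touches the body of SWI5, which runs the other way. The shMETTL3 peak, chr9:128261226-128261494 (269 nt, score 5.53), lay 12445 nt away, at 72.6% of the gene body.

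GOLGA3, a golgin of the early Golgi stack that is cleaved during apoptosis, was the only member with shTRA2A peaks and no control peak (chr12:132768914-132829081, minus strand). Of the 5 golgin genes with an shTRA2A peak it was therefore 1 without a control peak, and over all genes with an shTRA2A peak 35.1% had none. For shMETTL3 it was 2 of 9, GOLGA3 and GOLGA1, against 39.9%. The shTRA2A peaks of GOLGA3 were 132771889-132771963 (score 8.34), 132796612-132796661 (score 8.71) and 132828365-132828414 (score 7.65). Those of shMETTL3 were 132771764-132771813 (score 6.49), 132772889-132773038 (150 nt, score 14.3) and a span of 2231 nt, 132784129-132786359 (score 7.33). None of the 3 overlapped an shTRA2A peak, but the first of each list lay 75 nt apart, in the final 20% of the gene body.

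The last GOLGA3 peak of shTRA2A was the only golgin peak inside a window around a RefSeq transcript start (250 bases before to 50 after). Such a window was touched by 1.37% of the whole shNC list, and the figures were 2.63% for shTRA2A and 3.07% for shMETTL3. The peak is centred on the start at chr12:132828389, with 25 bases on each side. The start lies inside the longer GOLGA3 body, so transcripts that begin upstream can cross the whole peak. The middle 30 bases, chr12:132828375-132828404 on the minus strand (GRCh38.p14, RefSeq), are shown because this is the 1 golgin peak whose bases could be read here, and capitals mark the bases from the start site on.
GOLGA3 start peak: tccttgtttgtctttGTCGCTGGCCGACTT
The letters GGAC, the core of the preferred m6A motif, occur in the 50 bases of this peak 0 times on the transcript strand and 0 times on the other. At the same place in all 35116 start windows, GGAC occurs in 17.0% on the transcript strand and in 16.9% on the other. The sequences of the other golgin peaks were not used here.

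Control peaks with high scores were the ones most often found, in the golgins as in the lists as a whole. To be found took only 1 shared base, and these shares were not matched for peak width. Of 10 golgin control peaks above the 80th percentile of score, 3 were found in shTRA2A (6.67 to 65.2% as an interval), against 28.2% of all such control peaks, and 6 in shMETTL3 (26.2 to 87.8%), against 44.2%. Of the 28 others, 3 were found in each list, 10.7% (2.27 to 28.2%), against 4.92% in shTRA2A and 11.4% in shMETTL3 over all control peaks. GOLGB1 supplied 6 of the 10 higher-scoring peaks, of which 1 was found in shTRA2A and 2 in shMETTL3, and none of its 10 others was found in either. In the other golgins 2 of 4 higher-scoring peaks were found in shTRA2A and 4 of 4 in shMETTL3, against 3 of 18 lower ones in each list. The 3 found in shTRA2A were the last peak of the GOLGA4 stretch, whose 78.2nd percentile is just under the limit, and 2 narrow GCC1 peaks that the same shTRA2A peak took in.

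The strongest control peak of GOLGB1, of GOLGA4 and of TRIP11 was found in both lists, and that of GCC1 in neither. Over all genes with at least 3 control peaks and at least 1 of them found, the strongest was among those found in 64.6% of 339 genes for shTRA2A and in 71.1% of 570 for shMETTL3. In the golgins it was 3 of 4 for each list, too few genes for a comparison, and GOLGB1, picked for its counts, is 1 of them.

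**Figure D5:**
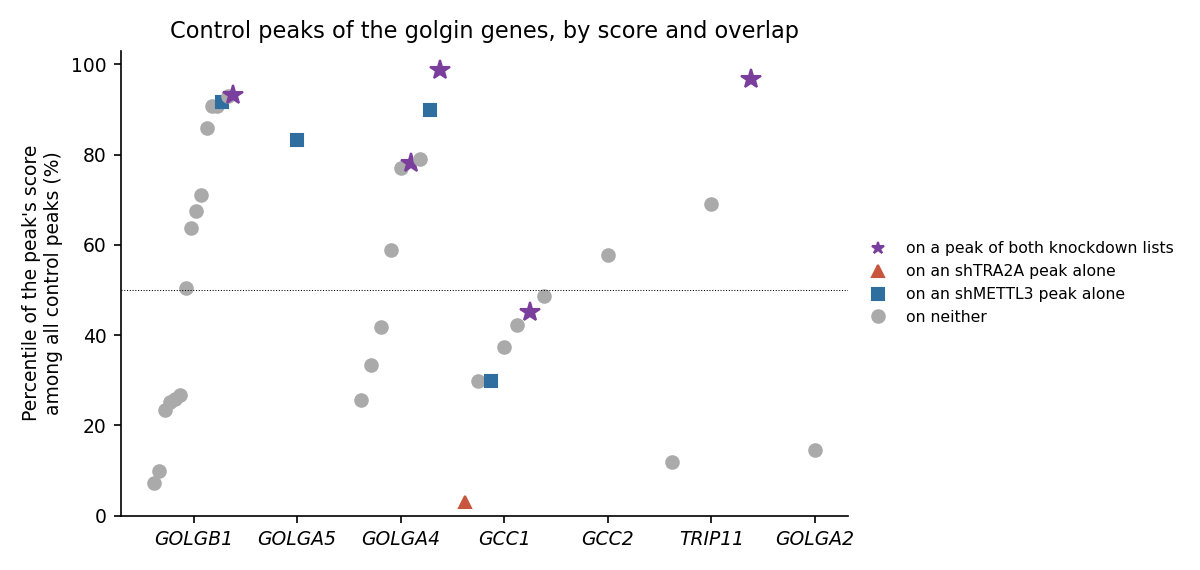
Each control peak of the golgin genes by the percentile of its score among all 9206 control peaks (vertical axis), with the marker showing whether it shares a base with an shTRA2A peak, an shMETTL3 peak, both or neither. The tallest peaks of GOLGB1, GOLGA4 and TRIP11 are found in both lists, while all 7 GCC1 peaks lie below the median (dotted line).

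Read from the knockdown side, 6 of 11 golgin shTRA2A peaks lay on a control peak, 54.5% (23.4 to 83.3%), against 33.8% of all shTRA2A peaks. For shMETTL3 it was 9 of 19, 47.4% (24.4 to 71.1%), against 32.7%. Both intervals include the value over the list. The knockdown lists were also set against each other directly, without the control. Of the 11 golgin shTRA2A peaks, 7 lay on an shMETTL3 peak, 63.6% (30.8 to 89.1%), and 23.8% of all shTRA2A peaks did. Of these 7, 4 belong to GOLGA4, and without that gene 3 of 6 did (11.8 to 88.2%). Peaks of 1 gene are not independent, so the interval over 11 peaks may be too narrow. Of the 11 golgin shTRA2A peaks 9 scored above the median of their list, as did 10 of the 19 golgin shMETTL3 peaks. None of the shares in this paragraph was matched for score.

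Golgin control peaks lay mostly in the body of the gene and seldom near its 3′ end. The midpoint of a control peak was at a median of 62.3% of the gene body in the golgins and at 78.6% over 7198 control peaks of coding genes with a known strand. The final 20% of the body held 2 of the 38 golgin control peaks and 48.2% of all. The first 20% held 2 of 38 and 10.5%. The stretches of GOLGB1 and GOLGA4 alone hold 19 of the 38, at 60.2 to 68.2% of each body, and lengths along the body include introns. In the knockdown lists the golgin medians were 65.4% in both, against 70.8% for all shTRA2A and 72.6% for all shMETTL3 peaks. Each of these golgin medians is the midpoint of a GOLGA4 peak. GOLGA4 holds 5 of the 11 shTRA2A and 5 of the 19 shMETTL3 golgin peaks, at 64.2 to 68.6% of its body.

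The other genes of Golgi transport, 98 genes in 9 lists, had 79 control peaks, 0.806 per gene, and the golgins without GOLGB1 had 22 in 8 genes, 2.75 per gene. Both sets were uneven: of the 22 peaks GOLGA4 held 9 and GCC1 7, and of the 79, 37 lay in 18 coiled-coil genes. These rates were not matched for gene or transcript length. Of the 98, 34 had a control peak, against 4001 of the 20050 coding genes, and MIA3, which exports collagen from the endoplasmic reticulum, had the most, 10. Of the 34, 11 had an shTRA2A peak, 32.4% (17.4 to 50.5%), against 28.6% of all genes, and 22 an shMETTL3 peak, 64.7% (46.5 to 80.3%), against 46.9%. Of the 64 without a control peak, 6 had an shTRA2A and 9 an shMETTL3 peak. Of the 79 control peaks, 5 were found in shTRA2A, 6.33% (2.09 to 14.2%), against 9.58% of all control peaks, and 13 in shMETTL3, 16.5% (9.06 to 26.5%), against 17.9%.

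The coiled-coil proteins most like the golgins held 37 of those 79 control peaks. Of 18 such genes 13 had a control peak. Of these 7 had an shTRA2A peak, 53.8% (25.13 to 80.78%), against 28.6% of all genes with a control peak. An shMETTL3 peak was present in 10, 76.9% (46.19 to 94.96%), against 46.9%. For the golgins these were 4 of 7 and 7 of 7 genes. Of the 37 control peaks 4 were found in shTRA2A and 9 in shMETTL3, and of the 38 golgin control peaks 6 and 9. The coiled-coil genes were thus close to the golgins in these counts, and the difference was not tested. BICD1, a dynein adaptor, had 8, 0 and 1 peaks, and ERC1, a scaffold of vesicle fusion sites, had 6, 0 and 4. TMF1 and GOLIM4, chosen after their values were seen, had more peaks in shTRA2A than in the control. TMF1, a golgin-like RAB6 partner, had 3, 5 and 3 peaks, and GOLIM4, a cis-Golgi membrane protein, had 2, 5 and 2, with a best control score of 92.3.

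Among the remaining tethers and coats the COPII coat had the most control peaks, 19. In this coat, which buds vesicles from the endoplasmic reticulum, 7 of 12 genes had a control peak, 2 of them an shTRA2A and 5 an shMETTL3 peak. Over all genes with a control peak these shares were 28.6% and 46.9%. MIA3 had 10, 0 and 2 peaks and SEC31A, the outer coat subunit, 3, 2 and 1. In the COG complex, a tether within the Golgi, 3 of 8 genes had a control peak, none of them an shTRA2A and 1 an shMETTL3 peak, with COG8 at 3, 0 and 0 and COG5 at 1, 0 and 1. In the TRAPP complex, an exchange factor for RAB1, it was 2 of 13, TRAPPC12 with 4, 0 and 3 and TRAPPC3 with 1, 0 and 0. Among the ARF proteins with their exchange factors and GTPase activators, 4 of 11 had a control peak, with ARFGAP1 at 2, 0 and 1 and ARFGEF2 at 2, 2 and 0. Of 13 Golgi SNAREs 3 had one, with GOSR2 at 2, 0 and 1 and VTI1A at 1, 0 and 0. VPS50 (1, 1 and 1) was the only 1 of 5 GARP and EARP genes, and ARCN1 (1, 0 and 0) the only 1 of 9 COPI genes, with a control peak. None of 9 small GTPases and effectors, ARL1 and RAB6A among them, had one. Of the 20050 coding genes 4001 had a control peak. With 5 to 13 genes per set, the differences between these sets are a description and were not tested.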

How the data were processed

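Peak lists of 3 conditions were analysed, made from 6 libraries of U-251 MG cells. Per the submitters' processing notes reads were handled on GRCh38 and the tools named are featureCounts 2.0.1, HISAT2 2.2.1 and SAMtools, without their roles. Which program called the peaks, and with what thresholds, is unknown here. Column 5 of the deposited 12-column BED lists is a score from the authors' caller, of unstated scale, which describes, ranks and filters peaks within a list. A further list, whose name matches no label, equals the shTRA2A list byte for byte, and its 1 value column was not used.

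Comparisons ran in Python 3.11.15 (scipy 1.17.1, pandas 2.3.3, numpy 2.4.6). Overlap needs 1 shared base on the same strand, checked against bedtools 2.31.1 and on simulated data (0 differences). A golgin peak touches the RefSeq gene body (GRCh38.p14) on either strand. For counts over all genes a peak was given the coding gene it touches, or the innermost of several that holds the whole peak, and failing any coding gene a long non-coding one. By that assignment the GOLGA2 control peak has no gene. A regular peak is 1 block, a multiple of 25 nt and at most 1000 nt wide. Stretches join regular peaks with gaps of at most 1500 nt. Gene direction came from RefSeq start windows for 8 of the 9 genes.

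The members, gene lists and rules were chosen with earlier results of these data known. Named were all members, the 5 genes nearest to GOLGB1, the hairpin targets, cell markers and, per Golgi list, the 2 genes with most control peaks. Any other gene named (the neighbours of GOLGB1 by control count, KMT2C, TMF1, GOLIM4, ARL1 and RAB6A, and genes that overlap a golgin peak) was chosen after its values were seen. Other overlap, strand, score, width and merging rules were tried.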

Additional observations from a re-analysis of the deposited data

How the results depend on the processing

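Counts depended mostly on how much of each list was used. Among the better-scoring 50% of each list the golgins had 20 shNC and 10 shMETTL3 peaks in place of 38 and 19. With lists of equal length (2736 peaks) they had 14 and 10, in 4 control genes in place of 7. Of those 14 control peaks 2 were found in shMETTL3, in place of 9 of 38. When at least 50% of a control peak had to be covered, 3 were found in shTRA2A in place of 6 and 3 in shMETTL3 in place of 9. The other 32 alternatives of these counts stayed within 1.5 times. For single genes, 25 of 162 alternatives moved further, 19 of them under those limits on score. Unknown depth and the lack of replicates limit every comparison. No paired analysis was possible because each condition has 1 peak list.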
